A study of Mus musculus with 64 samples.

Results

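The genes described here encode the proteins of the cytoplasmic ribosome of the mouse. They were chosen by name: a symbol that begins with Rpl or Rps and continues with a digit, or one of Rplp0, Rplp1, Rplp2 and Rpsa, without the ribosomal S6 kinases (Rps6k) and without symbols that mark a pseudogene. This rule took 86 of the 23338 listed genes and dropped 16 symbols, 10 of kinases and 6 of pseudogenes. The 86 comprised 46 core proteins of the large subunit, 31 core proteins of the small subunit, 8 paralogs that can stand in for or resemble a core protein (Rpl3l, Rpl7l1, Rpl10l, Rpl22l1, Rpl36al, Rpl39l, Rps4y2 and Rps27l) and Rps19bp1, which encodes a nucleolar protein that binds Rps19 and is not part of the ribosome. The 4 X-linked members, all core genes, are Rpl10, Rpl36a, Rpl39 and Rps4x. Rps4y2 is annotated as a transcribed processed pseudogene under the name Rps4l.

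Reads per gene were counted in 64 libraries of C57BL/6 mice, each from a different embryo, cell line or animal. They comprised 12 whole eight-cell embryos of natural matings, from 4 litters, 4 embryonic stem (ES) cell lines, 24 livers of fetuses between 17 and 18 days post-coital and 24 livers of adults of 15 to 20 weeks, with equal numbers of males and females at each stage. The ES lines were grown from plated inner cell masses in 2i medium, which contains the kinase inhibitors PD0325901 and CHIR99021, with LIF, and each line stands for 1 embryo. No sample carried an engineered allele, and apart from the medium of the ES lines no agent was given. The embryos were amplified with a protocol adapted from single cells, whereas the ES lines and livers were prepared as stranded total RNA, so stage and library protocol cannot be told apart when ES cells are compared with embryos. Reads on genes ranged from 4659656 to 7725432 in embryos, from 9857929 to 10386931 in ES lines, from 5145371 to 8499603 in fetal livers and from 1567583 to 4757610 in adult livers. The summed level of 6 pluripotency markers was 2655 to 3145 CPM (counts scaled to a library of 1000000 reads) in ES lines. It was 490 to 1363 CPM in embryos and at most 6.99 CPM in livers. Among these markers, Nanog had 2.46 to 20.4 CPM in embryos and 489 to 546 CPM in ES lines. The sum of 7 hepatocyte markers was 21290 to 28800 CPM in fetal and 36720 to 50430 CPM in adult livers. Of these, Ass1 had at most 0.414 CPM in fetal and 1.28 CPM in adult livers. Cyp2e1 had medians of 21.4 CPM in fetal and 3976 CPM in adult livers. Fetal livers also held erythroid and neutrophil markers, whose values stand beside the liver comparison.

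A ribosome contains a single copy of nearly every one of these proteins, and cells make them in matched amounts. Their mRNAs are short, very abundant and mostly begin with a cytosine followed by a run of pyrimidines, the terminal oligopyrimidine (TOP) motif, through which the mTOR pathway and the protein Larp1 adjust their translation. Growing and dividing cells devote a large part of their mRNA to them. The paralogs arose by gene duplication or by insertion of a copied mRNA, and several, such as Rpl10l and Rpl39l, are known from the male germ line.

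Below are windows of 30 bases, 10 before the annotated start and 20 from it, 5′ to 3′ on the transcribed strand, from RefSeq promoters of build GRCm38.p6. Capitals mark a run of pyrimidines that opens with C at the start. The first 4 core genes were chosen because their values come up again or their runs are long, and the last 3 are paralogs in which no such run opens at the start.

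Rpl15, chr14:18270967-18270996, minus strand: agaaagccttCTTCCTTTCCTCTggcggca
Rpl35, chr2:39005112-39005141, minus strand: ccgccctttcCTCTTTCTCTCgaaccaggc
Rpl38, chr11:114668570-114668599, plus strand: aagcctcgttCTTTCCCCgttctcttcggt
Rps15a, chr7:118116128-118116157, minus strand: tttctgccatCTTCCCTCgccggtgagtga
Rpl39l, chr16:10170218-10170247, plus strand: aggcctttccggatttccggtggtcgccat
Rpl10l, chr12:66284382-66284411, minus strand: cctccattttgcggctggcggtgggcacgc
Rpl36al, chr12:69184048-69184077, minus strand: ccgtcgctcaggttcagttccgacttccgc

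The motif searched was a C at the first transcribed base followed by 4 bases that are each C or T, on the transcribed strand alone. It stood exactly at the annotated start in 13 of the 57 core genes with a RefSeq promoter (22.8%) and in 813 of all 27025 genes with such a promoter (3.01%). Allowing it to open up to 5 bases before or after that base gave 27 core genes (47.4%) against 21.2% of all genes with a promoter. The letters CTTTCC were found in the 30-base window, on the same strand, in 9 core genes (15.8%) and in 1.52% of all genes with a promoter. None of the 7 paralogs with a promoter had the motif at the annotated start. Annotated starts can lie a few bases from the real ones, so a window without the motif says only that these letters are not there.

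The members took a different part of the reads at each stage. Embryos gave them 7.53 to 11.8% of reads on genes (median 8.37%), ES lines 5.70 to 5.87% (median 5.77%), fetal livers 2.66 to 3.68% (median 3.38%) and adult livers 1.34 to 1.85% (median 1.58%). No library of one stage reached the range of another. The 2 highest embryos, at 11.8%, were male replicate 3 and female replicate 10. The genes of the mitochondrial ribosome, 76 in number, took a median of 0.785% in embryos, 0.425% in ES lines, 0.251% in fetal livers and 0.243% in adult livers, so that the 2 liver medians were close where those of the cytoplasmic proteins were not. Of the reads on core genes, the large subunit held 58.6 to 60.7% in all ES and liver libraries, and 59.2 to 66.6% in embryos.

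**Figure D1:**
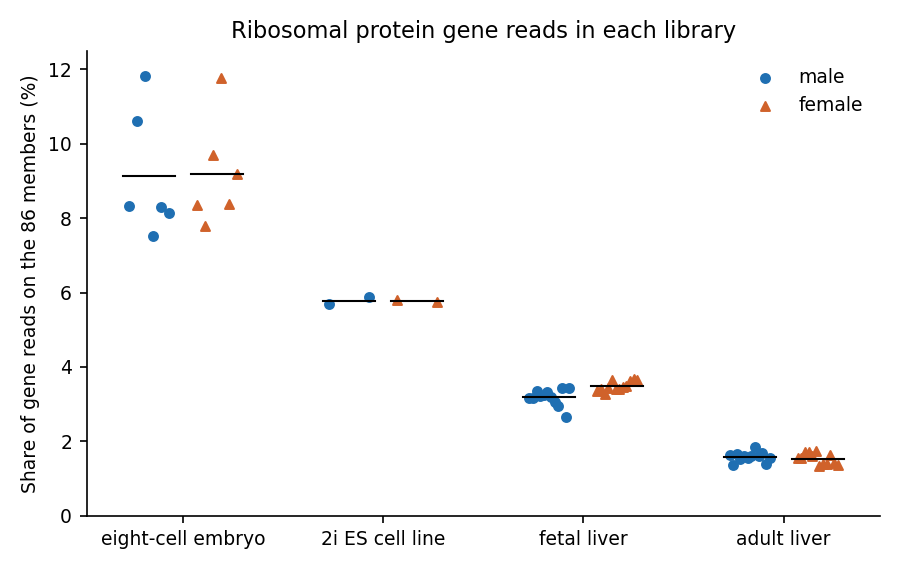
Share of reads on genes that fell on the 86 cytoplasmic ribosomal protein genes, in percent, by stage and sex; each point is 1 of the 64 libraries and each line the mean of a group. The 4 stages occupy separate ranges, with embryos between 7.53 and 11.8% and adult livers between 1.34 and 1.85%.

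On the scale of CPM after one TMM scaling of the 64 libraries, the median core gene stood at 617 in embryos, 518 in ES lines, 370 in fetal livers and 225 in adult livers. Compared per kilobase of coding sequence, Rpl41, which encodes the shortest ribosomal protein, was the highest core gene at every stage, at 9112 CPM per kilobase in embryos and 4076 in adult livers. Its coding sequence has only 75 nt while reads were counted over the whole gene, which raises this value. Next in embryos came Rplp0, a protein of the stalk that recruits elongation factors, at 5150 CPM per kilobase, and Rpl10, which joins the large subunit late in its assembly, at 3714, followed by Rpl5 and Rpl7a. In ES lines the next was Rpl39, which lines the exit tunnel of the growing peptide, at 1973 CPM per kilobase. In fetal livers it was Rps12 at 1314, and in adult livers Rpl10 at 934 with the stalk protein Rplp1 at 922. Setting aside the 4 genes near zero described next, the lowest were Rpl36 in embryos (267 CPM per kilobase), Rps16 in ES lines (547) and Rps10 in fetal (458) and adult livers (235). Without division by length, the highest core gene in embryos was Rplp0, at a median of 4897 CPM.

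The core genes Rpl26, Rpl30, Rpl34 and Rps27 (4 of 77) stayed under 10 CPM at every stage, and the other 73 were above it at every stage. Rpl26 had 0 reads in all 64 libraries, which allows up to 3 reads in each. The highest library was an embryo for each of the other 3, with 9.91 CPM for Rpl34, 5.64 CPM for Rpl30 and 3.19 CPM for Rps27. The proteins they encode are ordinary parts of the ribosome, and the count table holds only reads with a single place in the genome. Of all 50-base windows in the coding sequence of Rps27, 100% also occurred in another listed gene, Gm9846, while for Rpl30 the share with Gm12191 was 83.1%, for Rpl26 with Gm15772 74.1% and for Rpl34 with Rpl34-ps1 72.2%. Those partners had few or no reads either, and core genes with a like share, Rpl29 (74.9%) and Rps23 (91.8%), were counted well, Rps23 at 1079 to 4462 reads in embryos. In all, the coding sequences of 77 core genes shared a median of 91.3% of their windows with some other annotated gene. A read that falls wholly in such a window may fit several places, and how such reads were assigned was not tested. What sets the 4 genes near zero was not tested.

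Libraries of a stage resembled each other to different degrees. The median coefficient of variation of core genes over libraries was 3.12% in ES lines, 8.56% in fetal livers, 13.3% in adult livers and 31.2% in embryos, against 10.9, 11.4, 17.6 and 38.3% for all genes of at least 10 CPM. When each gene was expressed as its share of the core total, the medians were 2.62, 3.47, 6.89 and 18.7%. The steadiest core gene of the ES lines was Rpl8 at 0.88%, and the most variable were the X-linked Rpl10 (28.3%), Rpl36a (27.5%) and Rpl39 (24.7%). In embryos Rpl4, a protein of the exit tunnel, was steadiest at 9.23%, and Rps24 varied most at 49.7%. Rps16 was the most variable in fetal (16.3%) and in adult livers (24.1%).

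Adult livers were compared with fetal livers to ask how the mRNAs of the ribosome differ between a growing and a mature organ. Of 79 members tested, 44 were lower in adults and 1 was higher, at an adjusted p under 0.1 and an absolute log2 difference above 0.5 (edgeR's quasi-likelihood test with Benjamini-Hochberg adjustment over all genes). Among all genes tested, 35.3% were lower and 31.7% higher. The median log2 difference, adult minus fetal, was -0.53 over the members and -0.05 over all genes. At the adjusted p alone 72 were lower and 3 higher, against 47.2% and 44.2% of all genes. The large subunit had 22 of 43 genes lower, the small subunit 21 of 30, and neither had a gene that was higher. Because these are bulk tissues, a smaller number of cells of a type and less RNA per cell cannot be told apart.

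Rps29, a short protein of the small subunit, lay between 114 and 190 CPM in fetal livers (median 170) and between 54.0 and 103 CPM in adult livers (median 76.7). Rpl35, a large-subunit protein beside the exit tunnel whose start window is shown above, went from 200.3 to 317 CPM (median 271) in fetal livers to 102 to 163 CPM (median 125.0) in adults. Neither gene had a library of one age inside the range of the other. Their log2 differences were -1.03 ± 0.06 (SE) for Rps29 and -0.98 ± 0.04 for Rpl35, and Rps12 (-0.95 ± 0.05) and Rps15a (-0.92 ± 0.04) followed. At the other end, Rps21 (0.08 ± 0.06), Rpl10 (0.04 ± 0.04) and Rpl36 (-0.07 ± 0.05) did not pass the test.

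The paralogs split. Rps27l, a paralog of Rps27 known as a target of p53, was the only member past both limits that was higher in adults: 52.8 to 92.6 CPM in fetal livers (median 69.8) and 111 to 170 CPM in adult livers (median 145), without overlap, a log2 difference of 1.13 ± 0.05. Rpl22l1, the paralog of the RNA-binding protein Rpl22, was the member with the largest fall, from 65.2 to 94.4 CPM (median 75.1) to 16.2 to 55.6 CPM (median 28.1), again without overlap, a log2 difference of -1.20 ± 0.08. Rpl36al had a log2 difference of 0.45 ± 0.04 (adjusted p = 2.01e-14 in edgeR's test), which is under the size limit.

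Other genes of protein synthesis were taken from lists, to be read against the 35.3% of all genes that were lower and the 31.7% that were higher. Of 74 factors that build ribosomes, 40 were lower in adult livers and 4 higher (median -0.59). Among them Nop56 (-2.05 ± 0.06) and Nop58 (-1.87 ± 0.07), scaffolds of the particles that methylate ribosomal RNA, Npm1 (-1.54 ± 0.05), Ncl (-1.14 ± 0.08) and the methyltransferase Fbl (-0.81 ± 0.05) were lower. Of 34 translation factors and other mRNAs of the TOP class, 10 were lower and 2 higher (median -0.26). Pabpc1, which binds the poly(A) tail, was lower by -2.15 ± 0.13 and Eef1a1, which brings aminoacyl-tRNA to the ribosome, higher by 0.71 ± 0.03. After TMM scaling, mitochondrial ribosomal proteins went the other way, with 31 of 76 higher and 1 lower (median 0.44). Their unscaled share of reads had close medians, 0.251% in fetal and 0.243% in adult livers, so this direction depends on the scaling. Of 9 regulators of ribosome production and TOP mRNAs, Myc (-3.03 ± 0.14) and Mycn (-2.04 ± 0.26), transcription factors of growth, were lower and Eif4ebp2 was higher (0.67 ± 0.12). Of 2 ribosomal proteins that the naming rule does not catch, Gnb2l1, which encodes Rack1 of the small subunit, was lower (-0.85 ± 0.05), and Fau (0.03 ± 0.04) did not pass the test.

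Blood cell markers moved with this comparison. The summed level of 7 erythroid markers was 2490 to 3606 CPM in fetal and 14.6 to 197 CPM in adult livers, and that of 5 neutrophil markers 1293 to 2451 CPM against 0 to 7.46 CPM. Among the erythroid markers, the globin genes Hba-a1 and Hbb-b1 had at most 0.173 and 0.142 CPM in any fetal liver. Their part in the differences was not tested. With library totals in place of TMM, the median of all genes shifted to -0.61 and 75 of 79 members were lower, beside 6942 of all 12875 genes.

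ES lines against fetal livers set cultured dividing cells beside the fetal organ, and the same fetal libraries served in both comparisons. Of 83 members tested, 68 were higher in ES cells and 0 lower, where 36.2% of all genes were higher and 40.5% lower. The 83 include Rpl10l, Rpl34, Rpl39l and Rps27, which passed the count filter here but not in the comparison of livers. For these genes a higher level in ES cells followed from the filter and is not a separate result. At the adjusted p alone, 83 were higher and none lower, against 44.8% and 46.3% of all genes, and the median log2 difference was 0.65, against -0.03 over all genes. DESeq2 called 64 higher and 0 lower. The core large subunit had 35 of 44 genes higher and the small subunit 27 of 31. The share of reads outside genes lay between 26.7 and 31.3% in ES lines and between 34.1 and 49.0% in fetal livers. With it as a covariate, 16 of 83 members were higher and 0 lower, beside 4916 and 5696 of all 14858 genes.

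Most core genes kept close together in this comparison, with 62 of 75 called and quartiles of 0.55 and 0.78. The smallest differences were those of Rpl28 (0.12 ± 0.07), Rpl22l1 (0.17 ± 0.07) and Rpl41 (0.22 ± 0.06), under the size limit. The largest belonged to paralogs and to a gene near zero. Rps4y2 had 225 to 247 CPM in ES lines and 16.3 to 27.6 CPM in fetal livers, a log2 difference of 3.45 ± 0.06. Rpl39l (3.38 ± 0.39) and Rps27 (1.74 ± 0.21) rest on few reads, at no more than 4.32 and 3.06 CPM in any ES line. Rpl7l1, an autosomal relative of Rpl7, was higher by 1.33 ± 0.06. Ribosome-building factors were higher in 72 of 74 cases and lower in 0 (median 1.49), for example Npm1 (2.06 ± 0.06) and Nop56 (1.65 ± 0.06). Of the translation factors, 26 of 34 were higher and 1 lower (median 0.83), and of the mitochondrial ribosomal proteins 43 of 76 were higher and 2 lower (median 0.56). Among the 9 regulators 2 were higher and 3 lower: Mycn was higher (4.70 ± 0.20) and Myc lower (-2.67 ± 0.15).

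**Figure D2:**
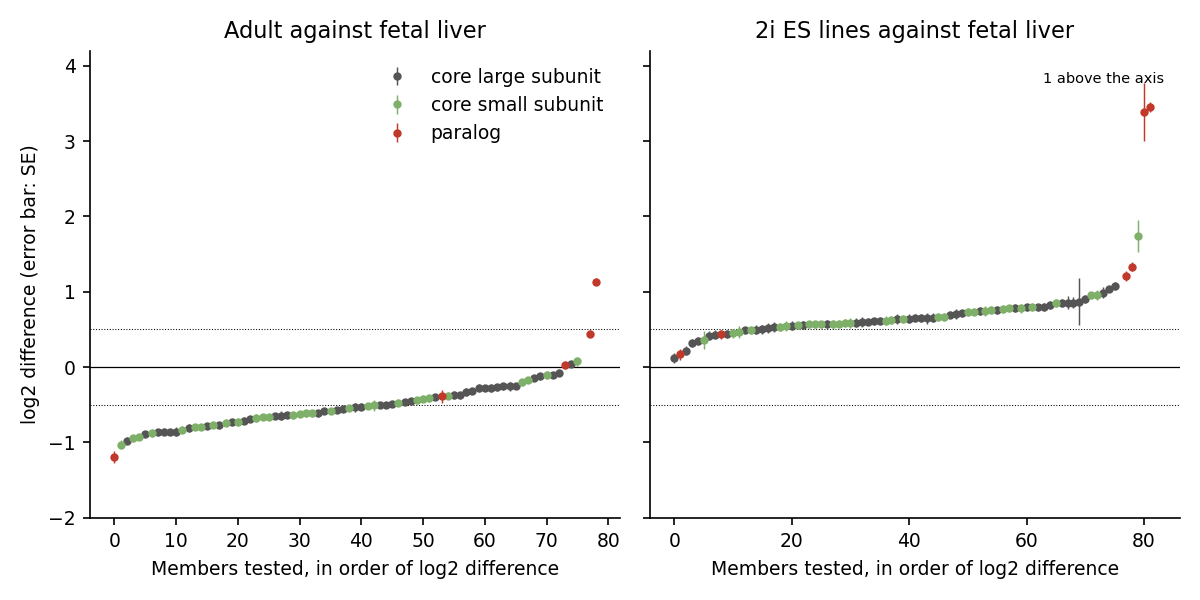
Log2 difference of each member tested, in rising order, for adult against fetal livers and for ES lines against fetal livers; bars are 1 SE, dotted lines mark the size limit of 0.5, Rps19bp1 is not drawn and Rpl10l lies above the axis of the ES panel. In adult livers 44 members were past the limits below 0 and 1, Rps27l, above it, whereas all 83 members tested lay above 0 in ES lines. Of these, Rpl10l, Rpl34, Rpl39l and Rps27 passed the count filter only through their reads in ES lines.

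ES lines against eight-cell embryos, which share the ES libraries with the previous comparison, gave differences in both directions. Of 85 members, 47 were lower in ES cells and 12 higher, while 27.4% of all genes were lower and 37.6% higher. The median was -0.70 over the members and 0.44 over all genes. With the share of reads outside genes as a covariate, which moved with stage and protocol, the direction turned. Then 18 members were higher and 4 lower, beside 413 and 788 of all 12948 genes. The median was 1.21 over the members and 0.13 over all genes, and 66 of 85 members had a positive difference in place of 21. Library composition and stage cannot be told apart here. The large subunit had 29 genes lower and 8 higher of 45, and the small subunit 15 lower and 3 higher of 31.

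The 5 members with the largest calls in the higher direction encode short proteins. Rps28 had 23.7 to 84.6 CPM in embryos (median 64.3) and 166 to 191 CPM in ES lines, and differed by 1.44 ± 0.26. Rpl38, known for its part in the translation of Hox mRNAs, had 45.7 to 147 CPM in embryos and 191 to 260 CPM in ES lines (1.23 ± 0.23). Rpl36 (1.31 ± 0.32), Rpl22l1 (0.88 ± 0.31) and Rpl35 (0.87 ± 0.21) were the others. Embryos and ES lines did not overlap for Rps28, Rpl36 and Rpl38.

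The members that were lower included genes for long proteins and also Rpl41, the shortest (-0.70 ± 0.17). Rplp0 had 3747 to 6072 CPM in embryos (median 4897) and 1374 to 1473 CPM in ES lines, a log2 difference of -1.92 ± 0.16. Rpl4 had 3301 to 4547 CPM (median 3894) in embryos and 1294 to 1351 CPM in ES lines (-1.67 ± 0.10). Both genes were thus far apart between the stages, without overlap. The largest falls were in Rpl39l (-6.17 ± 0.46), Rpl10l (-2.66 ± 0.40), Rps19bp1 (-2.30 ± 0.24), Rps16 (-2.13 ± 0.26) and Rpl30 (-2.12 ± 0.73), the last with few reads at either stage. Rpl30 had 8 to 42 reads in embryos and 11 to 15 in ES lines, and passed the count filter only through the embryos. It counts among the members called lower, but its lower level in ES cells followed from the filter and is not a separate result. Rps16 had 584 to 1594 CPM in embryos and 225 to 251 CPM in ES lines.

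The differences of core genes in that comparison ran with coding length. Over the 73 core genes above 10 CPM, the log2 difference of ES cells from embryos had a Pearson correlation of -0.72 and a Spearman correlation of -0.84 with length, whereas 5228 other genes of the same lengths gave 0.015 and 0.051. Genes are not independent replicates, and all points rest on the same 16 libraries, so no p is given. Of 22 core genes under 400 nt, 11 were higher and 3 lower in ES cells (median 0.49). The 29 between 400 and 600 nt held 17 that were lower and 0 that were higher (median -0.64), and all 22 from 600 nt up were lower (median -1.42). Other genes in these classes had medians of 0.01, -0.42 and -0.19. Of them, 185 of 575 were higher and 187 lower under 400 nt. Between 400 and 600 nt 214 of 909 were higher and 367 lower, and from 600 nt up 1011 of 3744 were higher and 1385 lower. Within a stage, the level per kilobase rose with length in embryos, with a Spearman correlation of 0.77, and had correlations of 0.08 in ES lines, 0.03 in fetal livers and -0.10 in adult livers. The comparisons among libraries of the total RNA protocol showed weak correlations of the differences with length, -0.19 for adult against fetal livers and 0.09 for ES cells against fetal livers. The correlation for ES cells against embryos was between -0.63 and -0.84 in every alternative tried. The share of reads outside genes was 8.63 to 14.4% in embryos and 26.7 to 31.3% in ES lines and so moved with stage and protocol together. Their part in the length pattern cannot be told apart.

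**Figure D3:**
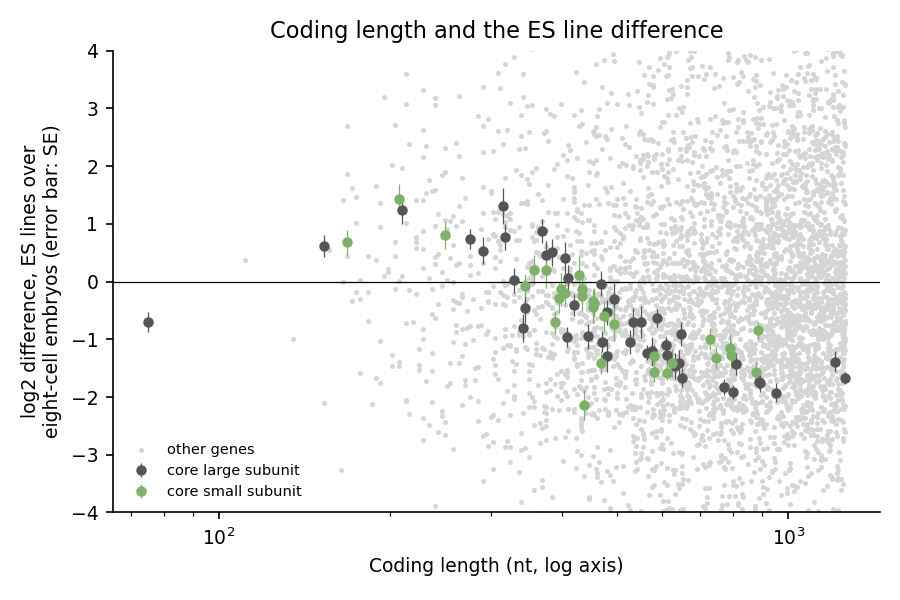
Log2 difference of ES cells from eight-cell embryos against coding length in nt on a log axis, for core genes of the large and small subunit with bars of 1 SE; grey points are other genes, and points beyond 4 in either direction are not drawn. Core genes under 400 nt had a median of 0.49 and those of 600 nt or more a median of -1.42.

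The wider lists in this comparison also leaned downwards. Mitochondrial ribosomal proteins were lower in 52 of 76 cases and higher in 4, ribosome-building factors lower in 43 and higher in 13 of 74, and translation factors lower in 24 and higher in 3 of 34 (median -1.07). Npm1 (-2.30 ± 0.16), Fbl (-1.46 ± 0.12) and Gnb2l1 (-1.40 ± 0.14) were lower in ES cells, Fau was lower (-0.52 ± 0.22), and Nop58 (0.65 ± 0.16) and the elongation factor Eef2 (1.03 ± 0.13) were higher. Of the 9 regulators, 4 were lower, Larp1 among them (-1.27 ± 0.21), and 3 higher.

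The paralogs were also followed as a percentage of the reads of each pair, paralog plus parent, which does not depend on the scaling of a library. Shares were compared over libraries by permutation (exact where a group had under 10 libraries, two-sided), with p-values adjusted over 24 tests of 8 pairs in 3 comparisons, and 17 of the 24 had an adjusted p under 0.1. The Rps27l pair stood at 96.8 to 100% in every library because Rps27 is near zero, and it says little.

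Rpl39l and Rpl10l set embryos apart. Rpl39l, an autosomal paralog of the X-linked Rpl39, had 76.5 to 245 CPM in embryos (median 131), 1.23 to 4.32 CPM in ES lines, 0 to 0.996 CPM in fetal livers and at most 0.485 CPM in adult livers. It made up 45.8% ± 8.02 (SD, n = 12) of its pair in embryos and 0.756% ± 0.317 (SD, n = 4) in ES lines (exact permutation test, adjusted p = 0.0022). Rpl10l, an autosomal copy of the X-linked Rpl10 that lacks introns, had 48.6 to 226 CPM in embryos (median 95.1) and 10.5 to 28.3 CPM in ES lines. It had 0 reads in all 24 fetal livers and a single read in 1 of 24 adult livers. Against the largest level that 3 reads in a fetal library allow, 0.511 CPM, its mean of 20.7 CPM in ES lines was at least 40.6-fold higher and its mean of 115 CPM in embryos at least 225-fold higher. Its share of the pair was 5.30% ± 3.24 (SD, n = 12) in embryos and 2.12% ± 0.488 (SD, n = 4) in ES lines (exact permutation test, adjusted p = 0.0038).

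Rps4y2, the processed copy of Rps4x, separated the early samples from liver. It had 172 to 365 CPM in embryos, 225 to 247 CPM in ES lines, 16.3 to 27.6 CPM in fetal livers and 8.10 to 25.6 CPM in adult livers. Its share of the pair was 16.9% ± 3.28 (SD, n = 4) in ES lines and 3.03% ± 0.280 (SD, n = 24) in fetal livers (exact permutation test, adjusted p = 0.00024). Between fetal and adult livers it went from 3.03% ± 0.280 to 4.10% ± 1.31 (SD, n = 24), a permutation test with an adjusted p of 0.00024. This pair was added after its level had been seen.

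Within the liver, the shares of 5 pairs differed between fetus and adult, the Rps27l pair near 100% among them. Rpl36al, an autosomal copy of the X-linked Rpl36a, which sits near the exit site for tRNA, held 38.6% ± 1.21 (SD, n = 24) of its pair in fetal and 59.6% ± 2.26 (SD, n = 24) in adult livers. The highest fetal share was 40.8% and the lowest adult share 55.3%. Its own level had medians of 137 CPM in fetal and 174 CPM in adult livers, while Rpl36a was lower in adults by -0.78 ± 0.04. Rpl22l1 fell from 28.7% ± 1.59 to 16.7% ± 3.23 of its pair, without overlap, and Rpl7l1 rose from a median of 14.1% to one of 17.7%. The permutation p of Rpl36al, Rpl22l1 and Rpl7l1 was 2e-05, the smallest that the resamples can give (adjusted p = 0.00016). The share of Rpl36al was 32.4% ± 5.29 in ES lines (n = 4) and 48.2% ± 7.63 in embryos (n = 12), an exact permutation adjusted p of 0.0070.

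**Figure D4:**
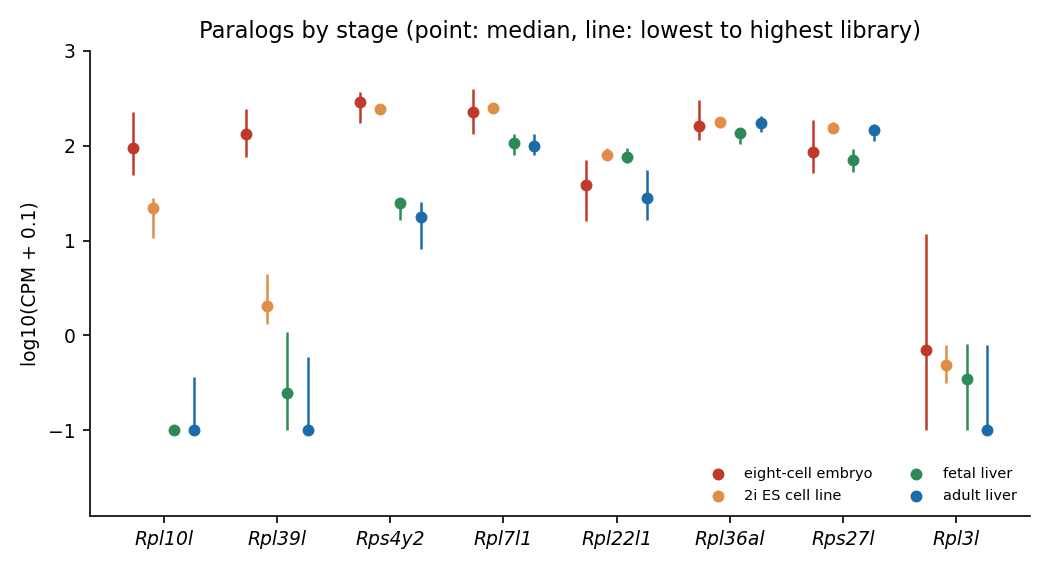
Level of the 8 paralogs at each stage as log10(CPM + 0.1); points are medians over libraries and lines run from the lowest to the highest library. Rpl39l has a median of 131 CPM in embryos and at most 4.32 CPM in any other library, Rpl10l falls from embryos to ES lines and has 0 reads in fetal livers, and Rpl36al has medians between 137 and 176 CPM.

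Rpl3l, known from heart and skeletal muscle, was close to zero, with 11.7 CPM in 1 embryo as its highest value. Rpl22l1 and Rpl7l1 were present at every stage, with medians between 28.1 and 79.2 CPM for Rpl22l1 and between 98.8 and 250 CPM for Rpl7l1.

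Males and females were compared at each stage, which is the question the study was built around. Female somatic cells silence an X chromosome, whereas in the early embryo and in ES cells of the naive state both can be active. In ES lines 5 of 84 members were lower in males and 0 higher, where 6.08% of all genes were lower and 3.42% higher. At the adjusted p alone 6 were lower and 1 higher, Rpl13a (0.29 ± 0.06), against 7.05% and 4.16% of all genes, and at an unadjusted p under 0.05 the counts were 7 and 3, against 13.1% and 11.2%. DESeq2 called 5 lower and 0 higher, but not the same 5, since Rpl39l was not among its calls. All 4 X-linked members were among the 5 that edgeR called. Rpl10 (X:74270812-74273135 of GRCm38, plus strand) had 713 and 715 CPM in the male lines and 1157 and 1197 CPM in the female lines, a log2 difference, male minus female, of -0.72 ± 0.06. Rpl36a (X:134585654-134588062, plus strand) had 273 and 292 CPM in males and 451 and 466 CPM in females (-0.69 ± 0.07). For Rps4x (X:102184941-102189394, minus strand) the male lines had 937 and 1011 CPM and the female lines 1466 and 1471 CPM (-0.59 ± 0.06). Rpl39 (X:37082520-37085402, minus strand) had 214 and 252 CPM in males and 352 and 360 CPM in females (-0.61 ± 0.09). In each gene both female lines lay above both male lines. The adjusted p in edgeR's test ran from 0.0105 for Rpl10 to 0.0293 for Rpl39.

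The fifth was the autosomal Rpl39l, with 1.23 and 1.31 CPM in male and 2.61 and 4.32 CPM in female lines (-1.44 ± 0.38, adjusted p = 0.0955 in edgeR's test), which DESeq2 did not call (adjusted p = 0.202). Rpl10l had 10.5 and 18.8 CPM in males and 25.3 and 28.3 CPM in females and did not pass (adjusted p = 0.135 in edgeR's test). With only 4 lines, leaving out either female line, replicates 3 and 4, left 0 members called, the lone female line then being assumed to vary like the others, and no gene at all was called either (0 of 13120 and 0 of 13108). The log2 difference of Rpl10 was then -0.69 and -0.74. Among all 458 X-linked genes tested in ES lines, 295 were lower in males (64.4%) and 1 was higher, and the median was -0.89.

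In embryos the X-linked members pointed the same way with a wider spread, and 0 of 84 members were called, where 0.220% of all genes were lower and 0.0440% higher in males. At an unadjusted p under 0.05 in edgeR's test, 4 members were lower, the X-linked ones, and 0 higher, where 2.48% of all genes were lower and 1.41% higher. Rpl10 had 1091 to 2867 CPM in males (median 1336) and 2127 to 3835 CPM in females (median 2843), and its log2 difference was -0.82 ± 0.21 (adjusted p = 0.253 in edgeR's test). The male value of 2867 CPM was that of replicate 3, 1 of the 2 embryos with the highest share of reads on members, and it made the groups overlap. Without that embryo Rpl10 (-1.06, adjusted p = 0.0099 in edgeR's test) and Rps4x (-0.96, adjusted p = 0.035) were called, and without female replicate 10 none was. Rpl39 was 91.9 to 163 CPM in males (median 134) and 135.0 to 327 CPM in females (median 220.0), a difference of -0.77 ± 0.23. Rps4x (-0.68 ± 0.23) and Rpl36a (-0.69 ± 0.25) were alike in size and did not pass (adjusted p = 0.723 and 0.921 in edgeR's test). DESeq2 called 1 member lower. The study, which used DESeq2, lists Rpl10 among its sexually dimorphic genes of eight-cell embryos, lower in males. Of the 273 X-linked genes tested in embryos, 18 were lower in males (6.59%) and 0 higher, with a median of -0.63. The autosomal members had log2 differences with a median of -0.01 in embryos.

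**Figure D5:**
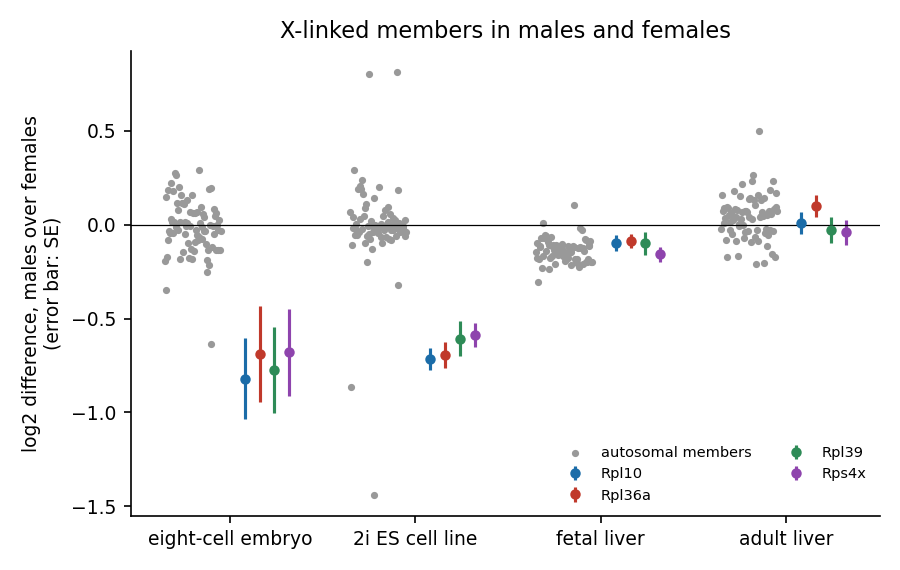
Log2 difference of males from females at each stage; coloured points are the 4 X-linked members with bars of 1 SE, and grey points are the autosomal members. The X-linked members lie between -0.82 and -0.59 in embryos and ES lines, and between -0.16 and 0.10 in livers.

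The livers showed no such X-linked difference past the limits. In fetal livers 0 of 79 members were called, against 3.81% of all genes higher and 0.828% lower in males, and in adult livers 0 of 79, against 3.01% higher and 6.48% lower. DESeq2 called 0 members in fetal and 1 in adult livers. At an unadjusted p under 0.05, 66 members were lower and 0 higher in male fetal livers, against 21.7% and 18.8% of all genes, and 6 lower and 11 higher in male adult livers, against 19.7% and 17.2%. Rpl10 differed by -0.10 ± 0.04 in fetal and 0.01 ± 0.06 in adult livers. Of the 427 X-linked genes tested in fetal livers, 7 were lower (1.64%) and 17 higher in males (median -0.02). Of 286 in adult livers, 31 were lower (10.8%) and 4 higher in males (median -0.06). Whether the sex difference of the X-linked members itself differs between ES lines or embryos and livers was not tested.

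Small differences of many members were nonetheless present in fetal livers. At an adjusted p under 0.1 without the size limit, 62 of 79 members were lower in males and 0 higher, where 19.5% of all genes were lower and 17.7% higher, and the median log2 difference was -0.13. Rpl13, a protein of the large subunit, had 318 to 432 CPM in males (median 375) and 405 to 548 CPM in females (median 496), and differed by -0.31 ± 0.05. Rpl27 had 143 to 200.1 CPM in males (median 182) and 185 to 247 CPM in females (median 219.5), a difference of -0.24 ± 0.05. Both overlapped between the sexes at the edges. Rps14 (-0.22 ± 0.04), Rpl18 (-0.23 ± 0.05) and Rps9 (-0.20 ± 0.04) followed. Between 39.9 and 49.0% of counted reads fell outside genes in the male fetal livers, and between 34.1 and 38.1% in the female ones, so the sexes did not overlap and this property of the libraries and sex cannot be told apart. With it as a covariate the median over members was 0.12.

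In adult livers 11 members were higher and 6 lower in males at that adjusted p, where 15.1% of all genes were higher and 17.7% lower. Rps16, a small-subunit protein whose tail reaches the decoding site, came closest to the limit of 0.5: 116 to 200.2 CPM in males (median 152) and 82.2 to 139 CPM in females (median 98.8), a log2 difference of 0.498 ± 0.079 (adjusted p = 1.19e-05 in edgeR's test). It was called under 6 of the other settings that kept the size limit. Rpl36al (0.22 ± 0.04), Rplp2 (0.26 ± 0.08), Rplp1 (0.23 ± 0.08) and Rpl27 (0.18 ± 0.07) were higher in males as well, and Rps13 was lower (-0.21 ± 0.07). Reads with several places in the genome made up 42.2 to 61.1% of all tallied reads, on genes or not, in male adult livers. In female adult livers they made up 32.7 to 43.2%. Their part in these differences was not tested.

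The sex difference of adult livers minus that of fetal livers was tested as an interaction. None of 79 members passed the size limit, against 5.19% of all genes higher and 8.53% lower, and DESeq2 called 0. At the adjusted p alone 45 were positive and 0 negative, where 18.7% of all genes were positive and 14.9% negative, and at an unadjusted p under 0.05 there were 53 and 0, against 20.7% and 16.7%. Rpl27 (0.46 ± 0.08), Rpl13 (0.44 ± 0.10), Rplp2 (0.42 ± 0.10), Rpl36al (0.37 ± 0.07) and Rps15a (0.31 ± 0.07) had the smallest adjusted p. The fetal libraries described above, in which sex moved with the share of reads outside genes, enter this test. In the same interaction 4 of 76 mitochondrial ribosomal proteins were positive past the limits, 2 of 74 ribosome-building factors were positive and 1 negative, and 1 of 9 regulators was negative. Between the sexes at a single stage, 0 of 76 mitochondrial ribosomal proteins were called. In embryos Eif2s3x, an X-linked subunit of an initiation factor, was the 1 translation factor lower in males (-0.82 ± 0.16, adjusted p = 0.0288 in edgeR's test).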

How the data were processed

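The authors deposited raw counts: reads per gene from HTSeq after alignment to mm10 with TopHat (2.0.4), Bowtie2 (2.1.0) and SAMtools (0.1.18), with duplicates removed by Picard and reads of several places not counted. Everything else was computed from these counts. CPM used edgeR 4.0.16 (R 4.3.3) TMM factors over all 64 libraries. Comparisons used the libraries of the groups compared, filterByExpr and a robust quasi-likelihood test, with sex as a covariate between stages. A call needed an adjusted p under 0.1 and an absolute log2 over 0.5, as in the study. SE is the absolute log2 over the root of F. Samples were taken as separate embryos, lines and animals, and p-values measure their spread. The embryos came from 4 litters, litters of the fetuses are not known, and litter was in no model. Permutation tests used 100000 resamples (scipy 1.17.1). Coding lengths and places came from GENCODE on GRCm38. A count of 3 reads gave a floor of 0.289 to 1.91 CPM before TMM scaling, for counting error only.

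Members and gene lists were chosen with earlier results of these data known. Named were, per comparison of stages, the 5 largest calls in each direction, and per sex comparison the 5 smallest adjusted p, besides extremes of level and variation, X-linked members, paralogs and proteins outside the naming rule; other genes were picked as examples after their values were seen. Values of some single genes are not reported here. Scripts were tested on simulated counts. Alternatives were DESeq2 1.42.0, other scalings, filters, thresholds, covariates and left-out libraries.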

Additional observations from a re-analysis of the deposited data

Results flagged for a closer look

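The 6 male and the 6 female embryos were each searched for a library far from the others in the levels of named members and in their share of reads. The other groups were too small or too large for this search. Of 76 groups tested, 13 held such a library, where chance gives about 1 in 20. The 76 rest on the same embryos and are not independent, so these figures do not measure an excess. The embryos were amplified from few cells, and no cause was tested.

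Male replicate 3 accounted for 9 of the 13, each time as the highest of the 6 male embryos. It had 409 CPM of Rpl22 (the others 152 to 234), 1225 CPM of Rpl23a (405 to 526), 310.2 CPM of Rpl35 (134 to 170.0), 303 CPM of Rpl36al (115 to 167), 245 CPM of Rpl39l (76.5 to 137), 1530.2 CPM of Rps24 (372 to 693), 678 CPM of Rps25 (187 to 327), 646 CPM of Rps26 (269 to 378) and 3485 CPM of the X-linked Rps4x (1312 to 1956). This embryo also had 1 of the 2 highest shares of reads on members, 11.8%.

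Female replicate 10, the other embryo with a share of 11.8%, was highest among females in Rps2 (4569 CPM, the others 2974 to 3416). Rpl3l reached 11.7 CPM in female replicate 7 (the others at most 2.36) and 6.46 CPM in male replicate 5 (the others at most 1.21). Female replicate 7 was the lowest for Rpl30, at 1.08 CPM (the others 3.86 to 4.87).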

How the results depend on the processing

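Of 186 alternative values of counts and medians, 157 kept their direction and stayed within 1.5 times or 1 SD. For adult against fetal livers, 3 members were higher and 72 lower with no size limit, and 2 were higher in males only. By library totals 75 were lower, beside 6942 of 12875 genes. For ES cells against fetal livers, the covariate of reads outside genes left 16 higher, beside 4916 of 14858 genes. For ES cells against embryos, 7 were higher in females only. With that covariate, which stage confounds, 4 were lower and 18 higher, beside 788 and 413 of 12948 genes. Of 85 members 66 were then positive in place of 21, so most changed sign. Among those called before were Rpl10 (1.46), Rpl7 (1.02), Rps16 (0.40) and Rps4x (1.60). For embryos by sex, DESeq2 called 1 lower, and leaving out replicate 3 gave 2. For ES lines by sex, 1 was higher with no size limit, and leaving out single lines gave 0 to 2 higher and 0 to 6 lower. With no size limit, 62 were lower in male fetal livers, 11 higher and 6 lower in male adult livers, and 45 higher in the interaction. One member (1), Rps16, was higher in male adult livers with size factors of DESeq2, library totals, scaling without the members, no filter on low counts, DESeq2, or the covariate. Of the paralog shares, 11 passed in females only. By library totals the median core gene had 677 CPM in ES lines, 410 in fetal and 182 in adult livers. The member share in ES lines was 5.98% with Fau and Gnb2l1 and 5.58% without the top member.

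Replicate numbers did not pair samples: deviations of same-numbered fetal and adult livers correlated at -0.14 to 0.07, those of ES lines and embryos at 0.0049 to 0.024. A replicate block gave 1 higher and 48 lower for adult against fetal livers, and 12 higher and 43 lower for ES cells against embryos, and 2 of 4 ES lines correlated best with their own number. Adult livers were the shallowest, down to 1567583 reads.
The alternatives without embryo replicates 3 or 10, without the Rps4y2 pair (14 of 21 shares passed) and without the 8 adult livers above 33% of reads outside genes (38 members lower than in fetal livers) were chosen after seeing the data.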
